A study of Mus musculus with 2 samples.

Results

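The Hox genes encode transcription factors that give cells their position along the head-to-tail axis and along the limb. To describe the positional identity of cultured mouse chondrocytes, all rows whose symbol was Hoxa, Hoxb, Hoxc or Hoxd followed by a paralogue number were taken, which gave 39 of the 22156 rows of the table. The Hoxa cluster held 11 of them, the Hoxb cluster 10, the Hoxc cluster 9 and the Hoxd cluster 9. The selection used symbols only and no measured value.

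Primary chondrocytes of rib cartilage were grown as a monolayer and sequenced as 1 control library and 1 Myl3-KO library. The study's methods describe newborn mice, rib and articular cartilage, and C57BL/6J mice that carry Myl3 fl/fl with Col2a1-Cre as Myl3-KO and Myl3 fl/fl littermates as controls, whereas the labels call the control WT. In this design the recombinase is driven by the promoter of the cartilage collagen gene Col2a1, so deletion follows cells that use that promoter, and the floxed allele is shared by both groups under the methods. The number of animals behind each library and the passage of the cells are not given in the sources used here. Summed over all rows, the control library held 17612435 expected counts and the Myl3-KO library 13477977. Where a pair of values follows, the control stands first.

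With 1 library per genotype there is no replicate check, and every p-value and interval here covers counting error between these 2 libraries, not a difference between genotypes. Myl3 itself was listed at 0 counts in both libraries, so it could not check the labels. Of the 11 cartilage markers, 5 were listed at 0 in both libraries, namely Acan, Matn1, Matn3, Hapln1 and Cnmd. Col2a1 had 30 and 27 counts, and Sox9, the regulator of cartilage fate, had 866 and 480 (log2 ratio -0.47). The fibroblast collagen gene Col1a2 had 211652 and 189213 counts. Of the remaining cartilage markers, Col9a1 had 0 and 1 counts and Comp 1 and 2. Col11a2 had 293 and 395 counts (log2 ratio 0.82) and Col11a1 121 and 99, and both encode minor collagens of cartilage. The fibroblast marker Thy1 was also listed at 0 in both. A listed 0 can be a failed estimate as well as a lack of transcript, which was not tested, so the defining markers at 0 or low counts go against the cartilage label only as far as the table lists them. The summed FPKM of the 8 fibroblast markers was 3091 and 3449, while the small proteoglycan genes Dcn (631 and 155 counts, log2 ratio -1.64) and Lum (272 and 81, log2 ratio -1.36) were lower in Myl3-KO. The part of these marker differences in the Hox values was not tested.

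Mammalian Hox genes lie in 4 clusters, in which genes are numbered by paralogue group from the 3′ end. In the embryo, low-numbered genes are used from the hindbrain and neck backwards, middle groups at the level of the trunk, and the highest numbers in the tail and at the ends of the limbs. Mesenchymal cells keep much of this code in culture. Groups 5 to 9 pattern the rib-bearing thorax, and group 10 genes repress rib formation in the lumbar region. Each protein binds DNA through a homeodomain, usually together with PBX and MEIS proteins.

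The bases that encode the third helix of the homeodomain, which reads DNA, are shown for the most abundant Hox gene of these cells, Hoxb9, for the next, Hoxb7, and for the most abundant members of groups 10 and 13. Each run has 51 bases from the transcript annotation of GENCODE M21 on GRCm38 and is written in the direction of transcription, and capitals mark the bases that differ from Hoxb9. All 4 lie in exon 2 of 2, and Hoxa10 alone of them is on the minus strand.
Hoxb9, chr11:96274782-96274832, plus strand: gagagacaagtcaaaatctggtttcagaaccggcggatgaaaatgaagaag
Hoxb7, chr11:96289508-96289558, plus strand: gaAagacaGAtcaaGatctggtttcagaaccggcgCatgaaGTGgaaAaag
Hoxa10, chr6:52232560-52232610, minus strand: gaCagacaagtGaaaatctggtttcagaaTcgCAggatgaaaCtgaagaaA
Hoxd13, chr2:74670053-74670103, plus strand: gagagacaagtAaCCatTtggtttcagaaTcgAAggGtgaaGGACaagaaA
Hoxb7 differed from Hoxb9 at 9 of the 51 bases, Hoxa10 at 7 and Hoxd13 at 13. Over the whole homeobox of 180 bases, identity to Hoxb9 was 84.4% for Hoxd9, 83.9% for Hoxc9, 81.7% for Hoxa9, 75.0% for Hoxa10, 61.7% for Hoxb7 and 55.6% for Hoxd13. Among pairs of Hox genes with the same paralogue number the median identity was 80.6% (n = 42 pairs), and among the other pairs it was 60.6% (n = 699). Of the 31-base words of Hoxb9, 0.782% occurred in another gene, and none did for Hoxa10 and Hoxd13 (0%).

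Hox transcripts of the trunk level, and of the Hoxb cluster above all, made up most of the Hox signal in both libraries. The 39 genes summed to 274.2 FPKM and 300.5, where FPKM scales reads by gene length and library size. The Hoxb cluster took 71.6% of this sum and 72.1%, Hoxa 14.2% and 13.9%, Hoxc 8.17% and 8.19%, and Hoxd 6.07% and 5.74%. At least 3 counts were found for 29 of the 39 genes in each library. A gene at 0 counts may have reached 0.170 (control) or 0.223 (Myl3-KO) CPM, the count scaled by the library total, which is the value of 3 counts. That bound holds only where a listed 0 is a count and not a failed estimate, which was not tested for the Hox genes.

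**Figure D1:**
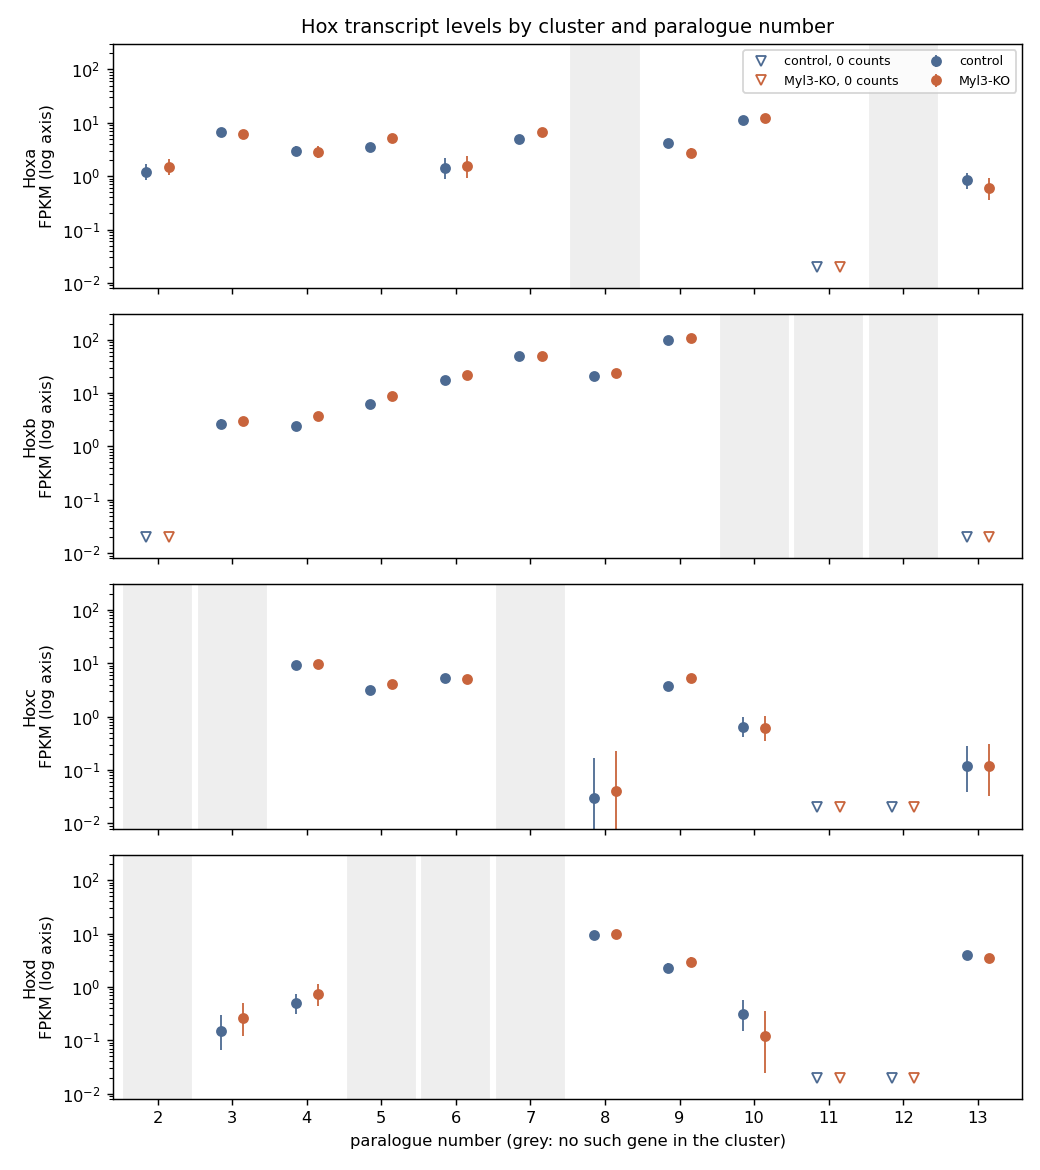
Level of the Hox genes of groups 2 to 13 in FPKM on a log axis, by cluster and paralogue number, with 95% Poisson intervals of the counts for control (blue) and Myl3-KO (orange), open triangles for genes at 0 counts and grey where a cluster has no such gene. Hoxb rises from Hoxb3 (2.67 FPKM in the control) to Hoxb9 (97.5), whereas Hoxd13 stands at 4.02 FPKM beyond 2 neighbours at 0.

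Within the Hoxb cluster on chromosome 11, levels rose toward the 5′ end. Hoxb1 and Hoxb2, used in the hindbrain, were at 0 in both libraries. Hoxb3 had 2.67 FPKM and 2.97. Hoxb4 had 2.37 and 3.70, and Hoxb5 6.29 and 8.85. Hoxb6 had 17.8 and 21.7 FPKM, Hoxb7 49.0 and 49.8, and Hoxb8 20.7 and 23.8. The rise was broken at Hoxb8, which was below Hoxb7 in both libraries with separate intervals, and Hoxb4 was below Hoxb3 in the control with overlapping intervals. Hoxb9, a thoracic gene, reached 97.5 FPKM in the control (95% Poisson interval 94.6 to 100.4) and 106 in Myl3-KO (102.6 to 109.5), from 4408 and 3655 counts. Hoxb9 alone was 35.5% and 35.3% of the Hox sum, and it ranked 806 and 680 among all genes of the table by FPKM. Hoxb13, at the far 5′ end of the cluster, was listed at 0 in both libraries, so Hoxb9 was the last gene of the cluster with listed counts.

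The Hoxa cluster on chromosome 6 was used along most of its length and at lower levels. Hoxa2 had 1.2 FPKM and 1.5, and Hoxa3 6.69 and 6.13. Hoxa2 thus had counts while its partner Hoxb2 was at 0. Hoxa4 had 2.99 and 2.84 FPKM, Hoxa5 3.54 and 5.14, Hoxa6 1.43 and 1.53, and Hoxa7 4.87 and 6.67. Hoxa9 had 4.27 and 2.76. The highest gene of the cluster was Hoxa10, a lumbar and proximal limb gene, with 359 and 301 counts or 11.3 and 12.5 FPKM. Next to it Hoxa11, a gene of the forearm and lower leg, was at 0 in both libraries. Hoxa13, a gene of the hand and foot, had 35 and 19 counts, or 0.83 and 0.59 FPKM.

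The Hoxc cluster on chromosome 15 showed a gap inside a run of expressed genes. Hoxc4 had 9.35 FPKM and 9.50, Hoxc5 3.13 and 4.01, and Hoxc6 5.35 and 5.02. Hoxc8, which lies between Hoxc6 and Hoxc9 and is a thoracic gene, had 1 count in each library. Its FPKM was 178 times lower than that of Hoxc6 in the control and 126 times lower in Myl3-KO, ratios that rest on that single count. Hoxc9 had 158 and 170 counts, or 3.78 and 5.31 FPKM. Beyond it Hoxc10 fell to 22 and 16 counts, Hoxc11 and Hoxc12 were at 0, and Hoxc13 had 5 and 4 counts.

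The Hoxd cluster on chromosome 2 had a trunk block and a separate 5′ gene. Hoxd1 was at 0 in both libraries, Hoxd3 had 8 and 9 counts and Hoxd4 22 and 19. Hoxd8 had 9.38 FPKM and 9.71, and Hoxd9 2.29 and 2.99. Hoxd10 had 10 and 3 counts, the latter equal to the floor. Hoxd11 and Hoxd12 were at 0, and yet Hoxd13, the gene at the 5′ end and a digit gene, had 176 and 115 counts or 4.02 and 3.44 FPKM. Hoxd13 was the most abundant member of group 13 in both libraries. Genes next to the 5′ end of the Hoxa and Hoxd clusters, Evx1 and Evx2, were at 0 in both.

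The sequences before the starts of Hoxd12 and Hoxd13 are shown because these neighbours stood at 0 counts and at over 100 counts in both libraries. They are the 250 bases before the RefSeq start on GRCm38.p6, plus strand, with each CpG in capitals.
Hoxd12, chr2:74674763-74675012: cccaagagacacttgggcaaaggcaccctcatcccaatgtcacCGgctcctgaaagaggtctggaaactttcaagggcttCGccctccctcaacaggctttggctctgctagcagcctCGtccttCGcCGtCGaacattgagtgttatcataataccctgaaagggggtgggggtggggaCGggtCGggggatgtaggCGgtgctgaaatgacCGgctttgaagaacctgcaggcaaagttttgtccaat
Hoxd13, chr2:74667975-74668224: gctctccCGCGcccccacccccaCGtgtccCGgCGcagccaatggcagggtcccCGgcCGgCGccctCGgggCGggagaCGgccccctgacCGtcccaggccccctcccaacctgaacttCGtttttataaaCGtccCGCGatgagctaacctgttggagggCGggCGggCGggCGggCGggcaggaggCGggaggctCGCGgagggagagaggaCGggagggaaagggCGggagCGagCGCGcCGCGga
The Hoxd12 run held 10 CpG and the Hoxd13 run 31. RefSeq promoter entries of 300 bases were found for 22 of the 39 Hox genes. Hoxb9, Hoxb7 and Hoxb6, among the most abundant Hox genes, had no such entry. For Hoxa10 and Hoxd11, which had more than 1 entry, the first was used. The first and the other entry held 12 and 21 CpG for Hoxa10, and 4 and 25 for Hoxd11. Medians with the other entries were not computed. The CpG counts of the 22 overlapped between genes above and below 1 FPKM. The median was 13 CpG for the 13 genes at 1 FPKM or more in both libraries (4 to 37) and 15 for the 9 genes under 1 FPKM in both (4 to 45), beside 7 for all promoter entries (n = 32851).

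By paralogue group, group 9 held the largest share of the Hox sum, 39.3% and 39.0%. Group 7 followed with 19.6% and 18.8%, group 8 with 11% and 11.2%, and group 6 with 8.96% and 9.38%. Groups 1 to 3 together held 4.57% and 4.35%, and groups 10 to 13 held 6.27% and 5.79%. By counts over annotated exon length, groups 1 to 3 held 2.55% and 2.77%. Groups 11 and 12 had no counts at all in either library. Mean paralogue number weighted by FPKM was 7.85 and 7.80 in Hoxb, 6.65 and 6.54 in Hoxa, 5.69 and 5.85 in Hoxc, and 9.22 and 8.94 in Hoxd. By position, 7 of the 8 most abundant Hox genes held the same rank in both libraries. The order was Hoxb9, Hoxb7, Hoxb8, Hoxb6, Hoxa10, Hoxd8 and Hoxc4, and the eighth was Hoxa3 in the control and Hoxb5 in Myl3-KO. The Poisson intervals overlapped in each library for Hoxb8 and Hoxb6 and for Hoxd8 and Hoxc4. In the control they also overlapped for Hoxa10 with Hoxd8 and Hoxc4, and for Hoxa3 with Hoxb5. In Myl3-KO the interval of Hoxb5 overlapped those of Hoxd8 and Hoxc4. Overlap of intervals is not a test of the difference, and no test between genes was made.

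**Figure D2:**
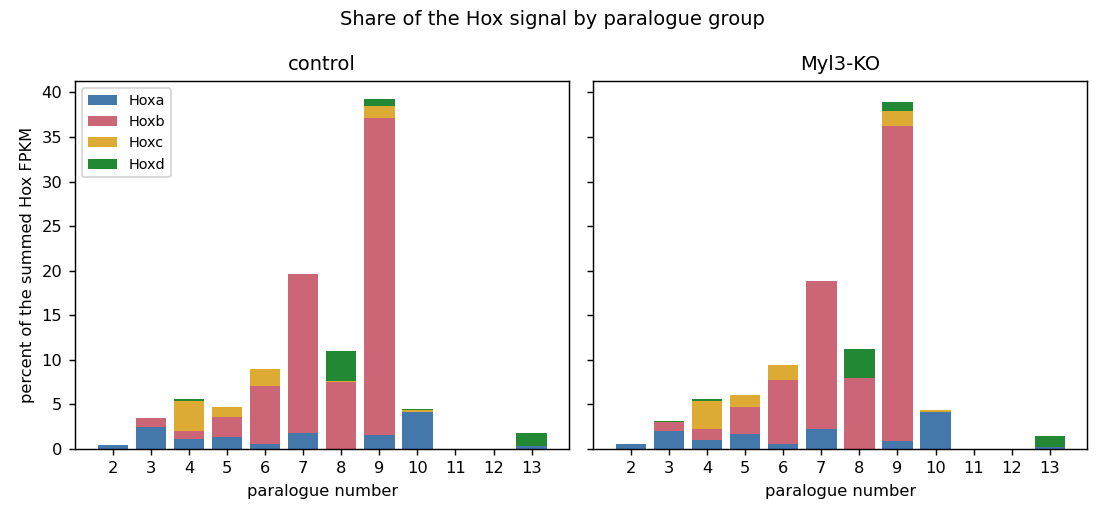
Percent of the summed Hox FPKM in paralogue groups 2 to 13, stacked by cluster, in the control and Myl3-KO libraries. Group 9 is the tallest bar in both, at 39.3% and 39.0%, and groups 11 and 12 are empty.

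Differences of at least 1 on the log2 scale were about as rare among Hox genes as among all genes tested. Among the 39, 28 reached 10 counts in total and were tested, 9 were at 0 in both, and Hoxc8 and Hoxc13 fell under the limit. None was higher in Myl3-KO by a log2 ratio of CPM of at least 1, beside 2.16% of all 12431 genes tested. Hoxd10 alone was lower by that size, beside 1.19% of all genes. Its counts were 10 and 3, with a log2 ratio of -1.35 and a 95% interval of -3.85 to 0.61 (exact binomial test, adjusted p = 0.302).

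Small differences passed the counting test, and those were all toward higher values in Myl3-KO. By the two-sided exact binomial test with Benjamini-Hochberg adjustment over all genes tested, 7 of the 28 Hox genes (25%) were higher, where the background was 18.6%, and 0 were lower, where it was 16.8%. At an unadjusted p under 0.05 there were 8, the additional one being Hoxc5 (161 and 158 counts). The share of all genes at that unadjusted threshold was not computed. Hoxb4, counted 107 and 128 times, had the largest log2 ratio of these Hox genes, 0.64 (95% interval 0.26 to 1.03, exact binomial adjusted p = 0.00348). Hoxb5 had 210 and 226 counts and a log2 ratio of 0.49 (0.21 to 0.77). Hoxb6 had 615 and 565 counts and a log2 ratio of 0.26 (0.10 to 0.43). Hoxb9 had a log2 ratio of 0.12 (0.05 to 0.18), the smallest of the 7. In the other clusters, Hoxa5 (117 and 130 counts, 0.54), Hoxa7 (159 and 161, 0.40) and Hoxc9 (158 and 170, 0.49) were higher. Hoxa7 did not pass under TMM or DESeq2 size factors (exact binomial adjusted p = 0.0503 with each). Raw counts of some of these were nearly level because the Myl3-KO library was the smaller. With edgeR's exact test at a preset coefficient of variation of 0.1 between libraries, 0 Hox genes passed the adjusted p. Under that setting, 61 of all 12431 genes passed it.

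**Figure D3:**
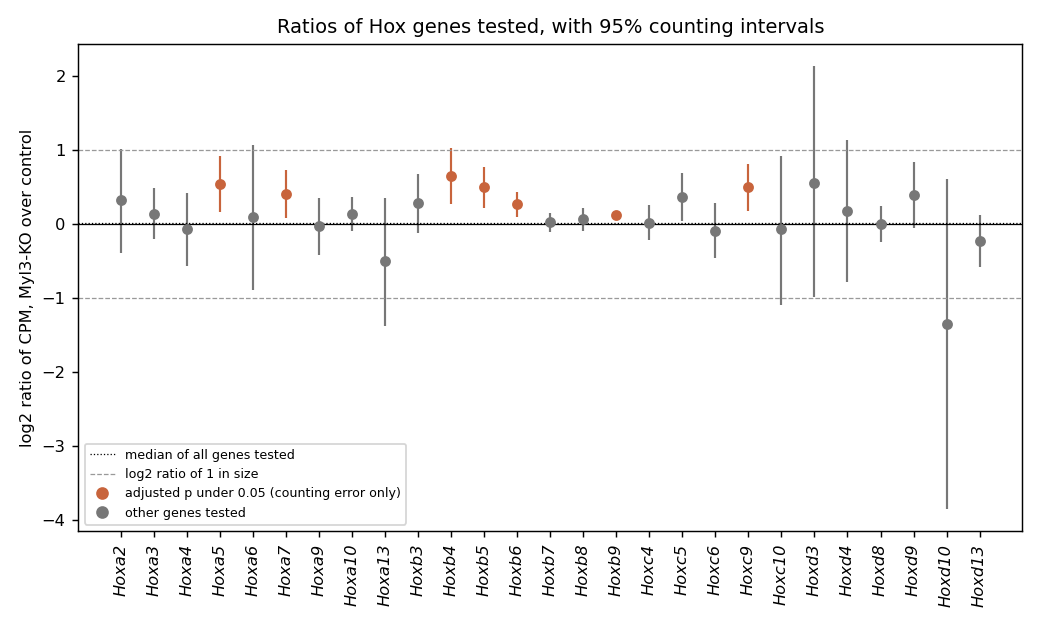
Log2 ratio of CPM, Myl3-KO over control, for 27 of the 28 Hox genes tested, with 95% Clopper-Pearson counting intervals and orange for an adjusted p under 0.05. The 7 orange points lie between 0.12 and 0.64, and the interval of Hoxd10 runs from -3.85 to 0.61.

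Of the 28 genes, 21 had a log2 ratio above 0 (75%), beside 52.7% of all genes tested. Their median was 0.14 and that of all genes 0.02. Summed counts gave a log2 ratio of 0.19 for Hoxa (95% interval 0.06 to 0.31), 0.13 for Hoxb (0.08 to 0.18), 0.17 for Hoxc (0.02 to 0.32) and 0.00 for Hoxd (-0.17 to 0.18). Group 5 had the largest ratio of the paralogue groups with an interval above 0, with 488 and 514 counts and a log2 ratio of 0.46 (0.28 to 0.64). Group 13 had 216 and 138 counts and a log2 ratio of -0.26, with an interval from -0.58 to 0.05 that included 0. In bulk RNA, fewer cells of a type and less RNA per cell cannot be told apart.

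For most Hox genes the count ratio and the FPKM ratio were alike. Of the 21 with at least 50 counts in each library, 17 differed by under 0.1 on the log2 scale and 1, Hoxa9, by over 0.5, beside 0.436% of the 10331 genes with such counts. Hoxa9 had a log2 ratio of -0.03 by CPM and -0.63 by FPKM. The length implied by the 2 units was 1742 bases and 2634, and the annotated Hoxa9 transcripts run from 462 to 3226 bases. Hoxa3 had 0.14 by CPM and -0.13 by FPKM, so its direction depended on the unit.

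**Figure D4:**
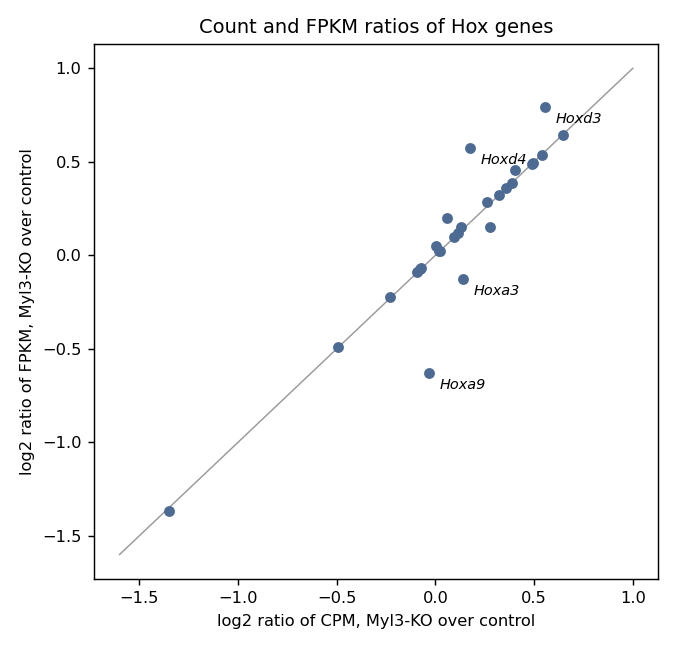
Log2 ratio of FPKM against log2 ratio of CPM, Myl3-KO over control, 1 point for each of 27 Hox genes tested, with the line of equal ratios. Hoxa9 lies farthest below the line, at -0.03 by CPM and -0.63 by FPKM.

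Some Hox counts may hold reads of overlapping genes. The strand used in counting is not given in the sources used here, so reads of antisense partners cannot be told apart, and genes that overlap on the same strand share reads whatever the setting. By exon overlap, 6 Hox genes shared bases with another gene of the table and 13 with an annotated gene outside it. Hoxb3 shared 52.9% of its exon bases with the antisense gene Hoxb3os. Hoxd3 and Hoxd4 shared 388 exon bases with each other on the same strand, and 61.2% and 49.1% of their 31-base words occurred in another gene. Hoxa7, among the 7 genes higher by adjusted p, shared 20.4% of its exon bases with the antisense gene Hoxaas3. Hoxa4 shared 255 exon bases with the antisense gene Gm29430. On the same strand, Hoxa2 and Hoxa3 shared 267 and 482 exon bases with Gm28308, and Hoxc5 and Hoxc10 shared 166 with each other. The values of all these Hox genes are therefore uncertain, with the largest overlaps at Hoxb3, Hoxd3 and Hoxd4.

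The partners of Hox proteins were read in both libraries. Of the 9 cofactor genes, 8 were tested, 2 (25%) were higher by adjusted p and 0 lower, beside 18.6% and 16.8% of all genes tested, and none passed a log2 ratio of 1. These background shares hold for the lists that follow. Meis2 had 5.09 FPKM and 5.59. Pbx3 had 22.1 and 27.2 (log2 ratio of CPM 0.27) and Meis1 9.95 and 11.6 (0.22), and these were the pair that passed. Meis3 was at 0 in both. Among the Polycomb genes, which keep Hox genes silent, 10 of 27 were higher by adjusted p and 4 lower, the latter near the background, with Ring1 at 0.57 and Suz12 at -0.27. The median log2 ratio of the 27 was 0.05, beside 0.02 for all genes tested. Among the 10 Trithorax and activating genes, which keep them active, 2 were higher, Kmt2a (0.23) and Kmt2b (0.27), and 2 lower, Dpy30 (-0.33) and Psip1 (-0.22), counts near the background in both directions.

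Factors that mark other positions of the skeleton were read beside the Hox code. Of the 22 limb and girdle factors, 6 were at 0 in both libraries, including Tbx5 of the forelimb and Tbx4 of the hindlimb, and Pitx1 of the hindlimb had 1 count in each. Prrx1, a general factor of limb and body wall mesenchyme, was the most abundant, with 278 FPKM and 327. Other members of this list also had counts in both libraries. En1 had 12.6 FPKM and 12.3, Tbx15 7.79 and 8.45, and Shox2 4.18 and 4.33. Lower levels were seen for Lhx2 (2.30 and 2.58), Emx2 (1.69 and 1.96) and Lmx1b (0.78 and 0.60). Of the 15 tested, 3 were higher by adjusted p, namely Prrx1 (log2 ratio 0.23), Tbx3 (0.32) and Msx2 (0.39), a count near the background of 18.6%. Lhx9 passed a log2 ratio of 1 on 4 and 10 counts, beside 2.16% of all genes. Of the 13 axial factors in the table, 5 were at 0 in both, among them the sclerotome genes Pax1 and Uncx. Foxc1 was the highest axial factor with 22.9 and 27.0 FPKM and the 1 of 6 tested that was higher by adjusted p (log2 ratio 0.24), and Tbx18 had 11.5 and 11.7. Of the 13 head skeleton factors, 8 were at 0 in both and 4 were tested, Dlx1, Dlx2, Otx1 and Pax3, of which none passed the adjusted p.

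**Figure D5:**
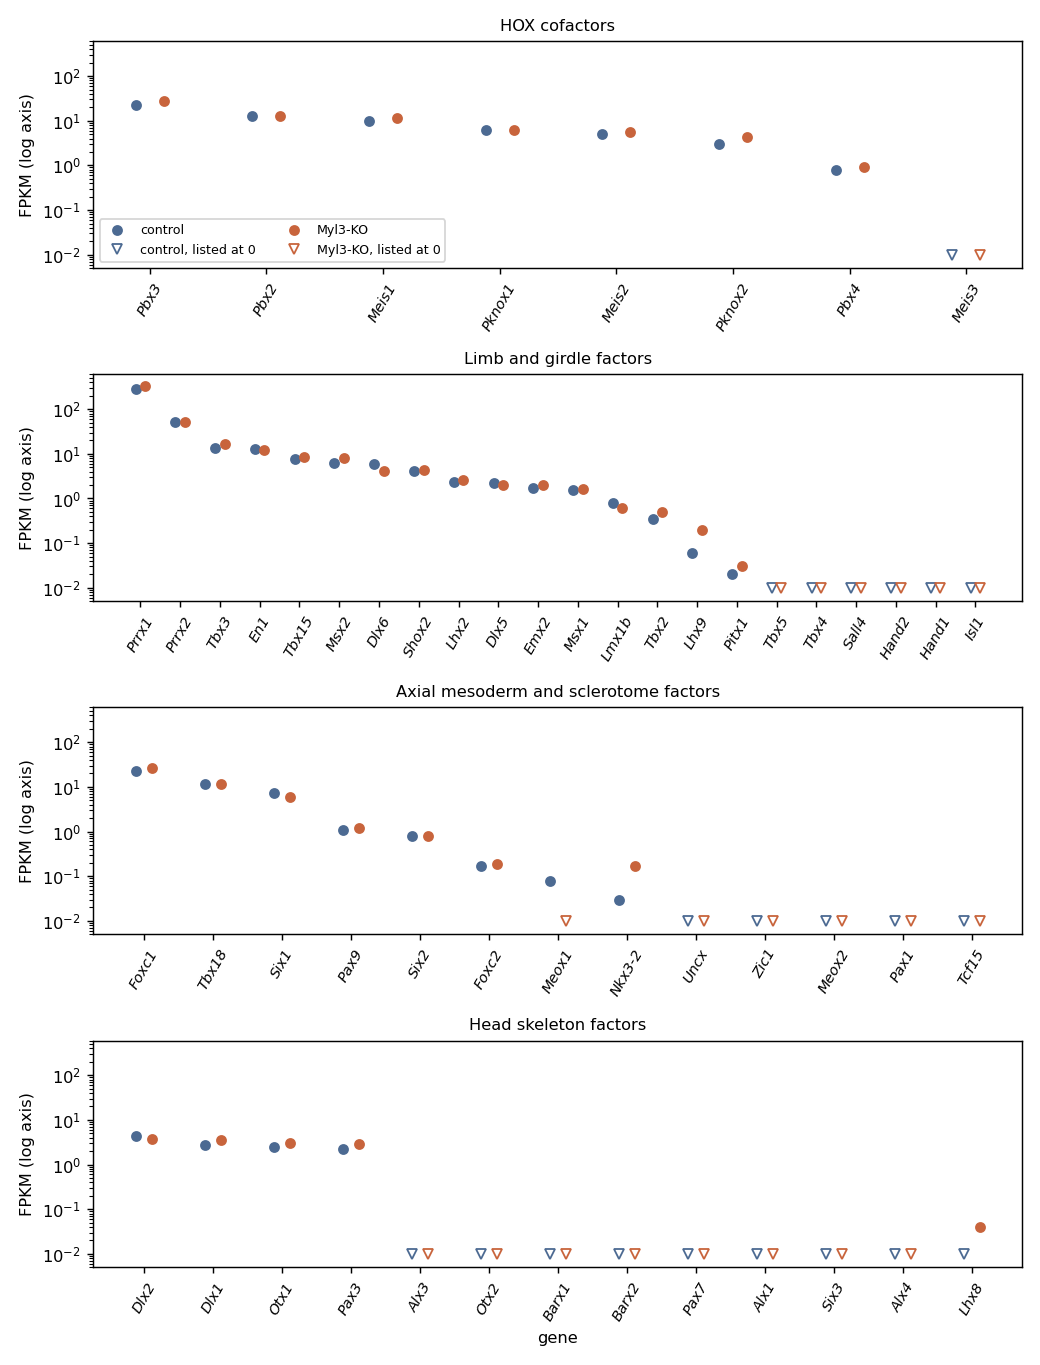
FPKM on a log axis for 8 of the 9 HOX cofactors and for limb, axial and head factors in control (blue) and Myl3-KO (orange), with open triangles for genes listed at 0. Prrx1 is the highest point (278 and 327 FPKM), while Tbx4 and Tbx5 are at 0 in both libraries.

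Genes that flank the Hox clusters were called in both directions, at counts near the background when all flanks were pooled. Within 500 kb of either end, 32 genes were tested, 7 were higher by adjusted p and 4 lower, beside 18.6% and 16.8% of all genes, and the median log2 ratio was 0.00. By cluster, 5 of 15 Hoxc flank genes were higher and 0 lower, 2 of 12 Hoxb flank genes were higher and 2 lower, both tested Hoxd flank genes were lower, and 0 of 3 Hoxa flank genes passed. Skap1 alone passed a log2 ratio of 1 in size, toward lower values on 11 and 4 counts, beside 1.19% of all genes.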

How the data were processed

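RNA sequencing of 1 control and 1 Myl3-KO library was used. For every gene the authors deposited an unnormalized expected count (a read estimate that need not be whole) and an FPKM value scaled by gene length and library. The submitters' processing notes name GRCm38 and mm10, and the aligner, counter and strand are not given in the sources used here. The column NC was read as the control. Counts were rounded for an exact binomial test, two-sided, against library totals (scipy 1.17.1) over the 12431 genes that reached 10 counts in total, with Benjamini-Hochberg adjustment and 95% Clopper-Pearson intervals. Counts under 3 were raised to 3 in ratios. The test was also run on simulated Poisson counts, which hold no variation between libraries, so that run could not check this source of error. edgeR 4.0.16 and DESeq2 1.42.0 served as alternatives only. Sequences came from GENCODE M21 and RefSeq. The rule named all Hox genes and list members that were called, at 0, or at 10 counts or more, and 1 Hox gene and 1 cofactor gene are not reported here singly. The members and lists were chosen with earlier results of these data known. Muscle, immune, endothelial and neural markers summed to 0.20, 1.02, 0.11 and 6.72 FPKM in the control and 0.05, 1.31, 0.21 and 7.72 in Myl3-KO. Of 8 ParaHox, Evx and Cdx genes, 6 were at 0 in both libraries. None of 11 noncoding cluster genes was a row.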

Additional observations from a re-analysis of the deposited data

How the results depend on the processing

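No paired analysis was possible because each genotype had 1 library. Hoxd10 was no longer called lower when at least 10 counts in each library or a fold of at least 4 was required (0 Hox genes lower under each), and 1 Hox gene was called higher at a fold of at least 1.5. The shares of all genes called under these settings were not computed. With edgeR's exact test at a preset coefficient of variation of 0.1, 0.2 or 0.4, 0 Hox genes passed the adjusted p, where 61, 4 and 1 of all 12431 genes did, and 1, 0 and 0 Hox genes had an unadjusted p under 0.05. At that unadjusted p the share of all genes was not computed. The direction turned for Hoxa3 by FPKM (-0.13) and for Hoxd8 with TMM factors (-0.014) and DESeq2 size factors (-0.012). Hoxa7 missed the threshold with both factors (exact binomial adjusted p = 0.0503 with each). By counts over annotated exon length, group 3 held 1.30% and 1.38% of the Hox signal and group 10 held 2.93% in Myl3-KO. Neither the spread between animals nor genes under 3 counts can be judged from these libraries.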
